A study of Mus musculus with 6 samples.

Results

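The genes described here are 10 transcription and chromatin factors of pluripotency and of the primordial germ cell: Pou5f1, Nanog, Sox2, Sall4, Klf4, Esrrb, Tfap2c, Prdm1, Prdm14 and Dppa3. They were chosen by name, and a row of a deposited list was counted as theirs when its nearest promoter or its annotated transcript belonged to 1 of them. All 10 were found among the 21751 protein coding genes of the annotation. Their rows numbered 5 of 7861 peaks in TAF4b replicate 1, 0 of 848 in TAF4b replicate 2, 48 of 64891 regions in H3K4me3 replicate 1 and 3 of 1730 in H3K4me3 replicate 2.

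The lists come from CUT&RUN, in which an antibody brings a nuclease to its target in the nucleus and the DNA it releases is sequenced. All libraries are labelled as prospermatogonia (germ cells of the fetal testis) from males at E16.5 (embryonic day), of genotype Taf4b-wildtype and labelled strain C57BL/6. The parents were homozygous for an Oct4-EGFP reporter, Pou5f1tm2Jae in a B6;129S4 stock, and live cells were sorted on its green fluorescence into GFP+ and GFP- cells. The labels do not say which of these fractions each library holds. The antibodies were against TAF4b, a subunit of the transcription initiation complex TFIID, against H3K4me3, a histone mark of promoters, and IgG, with 2 replicates each. The IgG libraries were not analysed here, and the labels do not give the number of animals per library or say that replicates came from separate animals. The reporter is an allele of Pou5f1, 1 of the 10 factors, so that the cells were sorted on that factor's own locus.

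Pou5f1 (OCT4), Sox2 and Nanog form the core of the network that keeps embryonic stem cells pluripotent, and Klf4, Esrrb and Sall4 act with them. Prdm1 (BLIMP1), Prdm14 and Tfap2c (AP2-gamma) establish the primordial germ cell fate from the epiblast, and Dppa3 (STELLA) is a marker of these cells that protects maternal DNA methylation in the early embryo. Fetal male germ cells keep part of this network for a time and lose much of it as they stop dividing and commit to spermatogenesis.

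As a check of the label, TAF4b promoter peaks of replicate 1 (those of the authors' deposited promoter class) were listed at 5 of 8 germ cell markers (Dazl, Ddx4, Mael, Mov10l1 and Tdrd9, named after their values were seen) and at 0 of 28 markers of Sertoli, Leydig, endothelial and blood cells, beside 22.7% of all coding genes. By position, within 500 bp of an annotated start, it was 5 of 8 and 1 of 28 (the Leydig cell marker Nr5a1), beside 28.2%. H3K4me3 promoter regions of replicate 1 were listed at 7 of 8 germ cell markers and at 9 of 28 others, beside 44.0% of all coding genes. The 9 were 5 of 8 Sertoli, 1 of 7 Leydig, 2 of 6 endothelial and 1 of 7 blood cell markers. Neither replicate 2 list held a promoter-class row at a marker of any of these cells. Within 1000 bp of a start, H3K4me3 replicate 2 had a region at 1 of 8 Sertoli cell markers (Wt1) and at 0 of 8 germ cell markers, beside 5.89% of all coding genes. With rows of any class and distance these were 3 of 8 (Amh, Gata4 and Wt1) and 0 of 8, beside 7.46% of all coding genes. The part of other cells in the H3K4me3 regions at the 10 factors, those of replicate 2 at Sox2, Sall4 and Tfap2c included, was not tested.

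TAF4b peaks of the promoter class were listed at 5 of the 10 factors in replicate 1: Sox2, Klf4, Esrrb, Prdm1 and Sall4. None was listed at Pou5f1, Nanog, Tfap2c, Prdm14 or Dppa3. Among all protein coding genes, 22.7% had such a peak in replicate 1. All 10 factors had an H3K4me3 region of replicate 1 within 500 bp of an annotated start, which 70.7% of coding genes had, and among those marked genes 31.3% had a TAF4b promoter peak. In TAF4b replicate 2 none of the 10 had a row of any class, against 3.14% of all coding genes and 4.34% of the marked ones with a promoter peak. The count of 5 therefore rests on replicate 1 and was 0 without it, and it became 2 in the higher-scoring 50% of the lists. No share of coding genes is given for that 50%, and the 22.7% and 31.3% are for the whole list. Peaks and genes are not replicates, so no test was made of these counts.

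**Figure D1:**
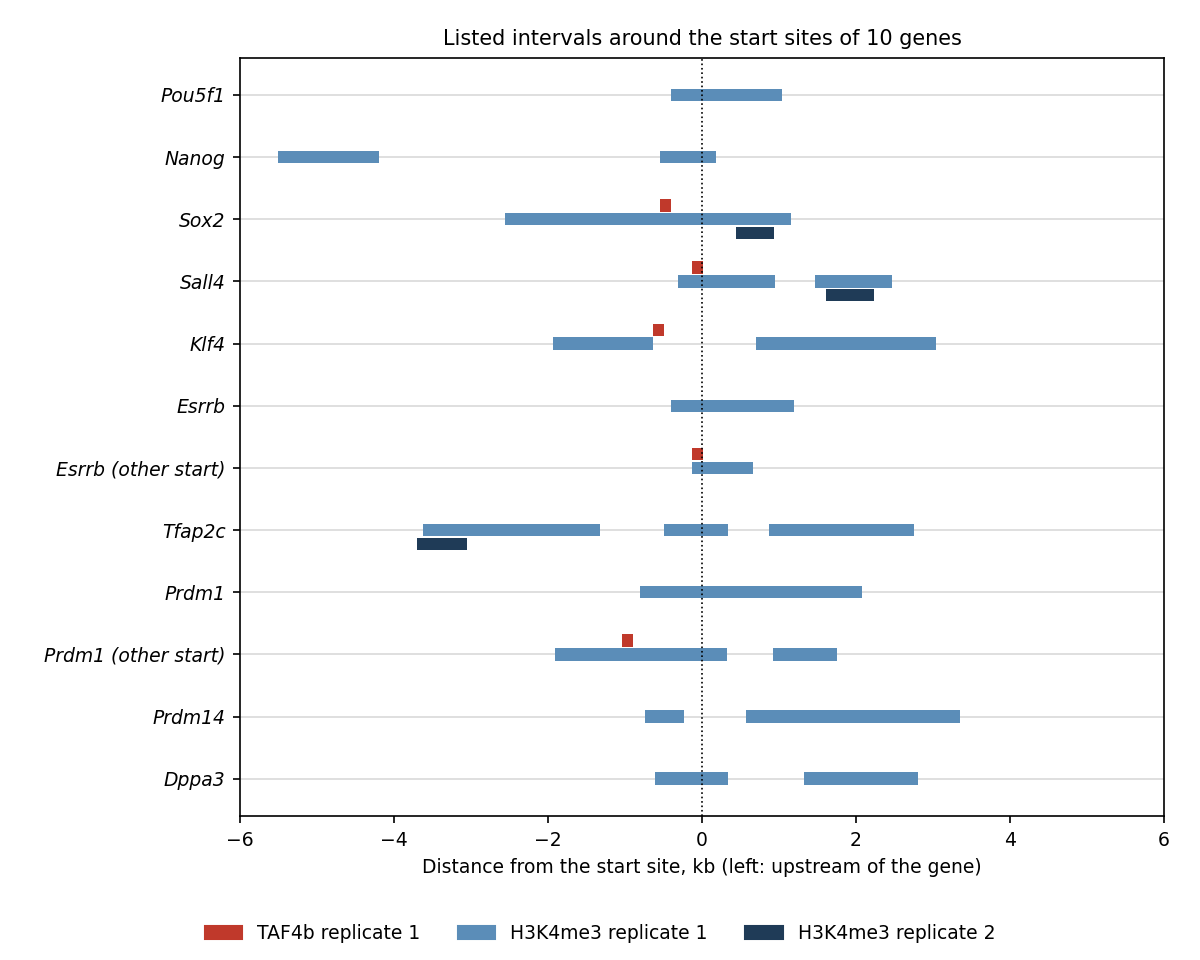
Intervals listed within 6 kb of the start sites, drawn as distance from the start in kb with the direction of transcription to the right, for the canonical start of each of the 10 genes and for the other start of Esrrb and of Prdm1 at which a TAF4b peak was listed. Bars are TAF4b peaks of replicate 1 and H3K4me3 regions of replicates 1 and 2, and all rows of the lists are drawn whatever gene they name. TAF4b peaks stand at Sox2, Sall4, Klf4 and the other starts of Esrrb and Prdm1, and the canonical starts of Klf4 and Prdm14 lie in a gap between H3K4me3 regions.

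The DNA under the 5 TAF4b peaks is printed first, because the peaks are the TAF4b signal at these genes and the letters show how their sequences differ. The sequences were read from GRCm39 on the strand of the gene, 5′ to 3′, leaving out 16 bases of the Esrrb peak and 11 of the Sall4 peak. These bases run downstream from the start of ENSMUST00000167891 at Esrrb and from the canonical start at Sall4. Both genes also have annotated starts farther upstream. Capitals mark matches, on either strand, to 6 letter strings. The GC box of SP and KLF factors was searched as GGGCGG, the CCAAT box by its name, and the TATA box as TATAAA. The shorter form of the cAMP response element was searched as TGACGT, the E-box as CACGTG, and the core of the octamer that POU factors bind as ATGCAAA.
Sox2, chr3:34704005-34704147, plus strand: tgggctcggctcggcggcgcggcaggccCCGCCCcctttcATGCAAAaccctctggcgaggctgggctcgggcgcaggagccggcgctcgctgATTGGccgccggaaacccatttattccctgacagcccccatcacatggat
Klf4, chr4:55532960-55533102, minus strand: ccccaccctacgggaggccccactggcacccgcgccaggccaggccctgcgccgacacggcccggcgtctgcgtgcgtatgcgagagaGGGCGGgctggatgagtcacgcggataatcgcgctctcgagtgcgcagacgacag
Esrrb, chr12:86516764-86516890, plus strand: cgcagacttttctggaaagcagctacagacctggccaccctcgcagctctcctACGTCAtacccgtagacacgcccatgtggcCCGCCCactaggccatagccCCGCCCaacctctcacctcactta
Prdm1, chr10:44405394-44405536, minus strand: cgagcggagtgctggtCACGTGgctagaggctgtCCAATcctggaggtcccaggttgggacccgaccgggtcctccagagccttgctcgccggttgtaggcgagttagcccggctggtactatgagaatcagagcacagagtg
Sall4, chr2:168609218-168609349, minus strand: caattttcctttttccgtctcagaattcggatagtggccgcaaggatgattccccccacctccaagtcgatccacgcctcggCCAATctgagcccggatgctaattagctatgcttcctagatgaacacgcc

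A GC box was present in the whole peaks at Esrrb, Klf4 and Sox2, that is in 3 of 5, and in 57.6% of the 5245 TAF4b replicate 1 promoter peaks at coding genes. CCAAT was present at Sox2, Prdm1 and Sall4, again 3 of 5, and in 37.6% of all these peaks. The octamer core was present in the Sox2 peak, where 1.64% of all peaks held it. The Esrrb peak held the cAMP response string (12.2% of all peaks) and the Prdm1 peak an E-box (7.42% of all peaks), and no peak of the 5 held TATAAA (1.70% of all peaks). These 6 letter strings were chosen after the sequences had been read, and a match describes letters only.

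The Sox2 peak lay at chr3:34704005-34704147 in the listed coordinates, with its centre 478 bp upstream of the only annotated start of this single-exon gene. Sox2 encodes the HMG-box partner of OCT4. Its score, the authors' own value for a peak, was 14.4, at rank 4007, and 46.8% of the list scored lower. The peak lay wholly inside an H3K4me3 region of 3715 bp, which ran from -2555 to 1160 bp relative to the start (negative is upstream) and covered the whole coding sequence of 957 bp. That region ranked 230 with a score of 259.4, and 99.6% of H3K4me3 replicate 1 scored lower.

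Klf4 encodes a zinc finger factor that binds GC-rich promoter sequence. Its TAF4b peak (chr4:55532960-55533102) had its centre 565 bp upstream of the canonical start, a score of 14.9 and rank 3805. The H3K4me3 regions flanked the start and did not cover it: 1 region ran from -1931 to -630 bp (score 126.7, rank 4890), and another from 705 to 3044 bp (score 119.2, rank 5799), over the coding sequence of exons 2, 3 and 4. Another region assigned to Klf4 had its centre 9937 bp downstream of the canonical start, with a score of 22.4. The TAF4b peak lay at the inner edge of the upstream region and shared 7 bp with it, 4.90% of the peak. When at least 50% of a peak had to lie inside a region, Klf4 was the factor lost. The count of factors with a TAF4b peak overlapping H3K4me3 in replicate 1 then went from 5 to 4. The share of all peaks under that 50% rule is not given here. An overlap of 1 bp or more was the ordinary outcome, found at 86.5% of the 5245 TAF4b promoter peaks at coding genes.

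Esrrb encodes an orphan nuclear receptor. The canonical start of this gene had an H3K4me3 region of 1598 bp (score 101.4, rank 9083), and the nearest TAF4b peak of replicate 1 began 48346 bp away. The centre of that peak, chr12:86516764-86516906, was 48417 bp downstream of the canonical start and 56 bp upstream of the start of the internal protein coding transcript ENSMUST00000167891. Its score of 16.4 (rank 3311) was the highest of the 5. The peak lay wholly inside an H3K4me3 region of 787 bp with a score of 68.6, below the 101.4 of the region at the canonical start. The other 5 regions assigned to Esrrb scored from 40.2 to 87.9.

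Prdm1 encodes a zinc finger repressor. Its TAF4b peak was also at another start: the centre of chr10:44405394-44405536 was 70685 bp upstream of the canonical start and 968 bp upstream of the start of ENSMUST00000167340, a transcript annotated as a retained intron. The score was 11.9 and the rank 5031. The H3K4me3 region that holds it (2236 bp, score 202.7, rank 708) scored above the region over the canonical start (2875 bp, score 155.0, rank 2358). The other 7 regions assigned to Prdm1 scored from 20.9 to 98.4. By position the TAF4b peak was not within 500 bp of any annotated start of the gene, and the count of factors became 4 of 10 under that rule, against 28.2% of coding genes.

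Sall4 encodes a zinc finger factor needed by germ cells and spermatogonia. It was the only one of the 5 whose TAF4b peak lay at the canonical start: the centre of chr2:168609207-168609349 was 61 bp upstream of it, and the deposited distance, -157 bp, refers to a start of the authors' gene set that differs from those of GENCODE M39. The score of 9.43, at rank 6312, was the lowest of the 5, and 15.8% of the list scored lower. The peak lay wholly inside an H3K4me3 region of 1258 bp with a score of 85.0 and rank 13516. It also lay within exon 2 of Gm14261, a noncoding gene on the opposite strand. Another Sall4 region, 31220 bp upstream of the nearest start, scored 20.9.

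The positions of the 5 peaks are given beside those of all TAF4b promoter peaks, as counts with no test. Of all 5245 such peaks at coding genes, 78.1% had their centre within 250 bp of the canonical start of the gene, with a median distance of 74 bp. Of the 5 only Sall4 did, and their median distance was 565 bp. Within 500 bp lay 2 of 5, against 88.7%. A long noncoding RNA start lay within 250 bp of the centre at 4 of 5 peaks, against 26.1% of all peaks. These were Gm56558 at Esrrb (0 bp), Gm64662 at Sox2 (62 bp), Gm67262 at Prdm1 (101 bp) and Gm34343 at Klf4 (216 bp), each on the strand opposite to the factor. The nearest such start to the Sall4 peak was 1225 bp away. Distances were set after the positions had been seen, and the noncoding starts come from the GENCODE M39 annotation, not from the gene set that the authors used.

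The scores were in the middle and lower part of TAF4b replicate 1. The 5 factors ranged from 15.8% to 56.0% of rows scoring lower, with a median of 46.8%, whereas the best promoter peaks of 4944 coding genes had a median of 61.6%. None of the 5 ranked among the 848 highest of the 7861 rows, 848 being the length of the replicate 2 list. With only 5 peaks this is not read as a trait of the factors. Scores tie often in this list. The promoter peaks listed next to each factor all had its exact score: Itgb3bp, Gm13135, Cpeb2 and Trp53bp2 beside Esrrb (126 promoter peaks at that score), Zfp426, Fech, Rev3l and Rala beside Klf4 (157), Dgcr6, Zfp879, Dgkq and Sntb2 beside Sox2 (132), Ptrh2, Mier1, Tmem242 and Pmpcb beside Prdm1 (166), and Ddx19a, Dus3l, 3300002A11Rik and Usp53 beside Sall4 (161). The likeness is the score rank alone, and the score does not set the named genes apart from the others tied with them.

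Absence from replicate 2 was the usual outcome at these scores. Of the 2241 promoter peaks of replicate 1 with scores from 9.43 to 16.4, 26 overlapped a replicate 2 peak (1.16%, 95% Wilson interval 0.793 to 1.69). Above that range 582 of 2990 did (19.5%, 18.1 to 20.9). Intervals cover counting error only. The read depth of the libraries is unknown, so a peak missing from replicate 2 does not show that TAF4b was absent there.

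**Figure D2:**
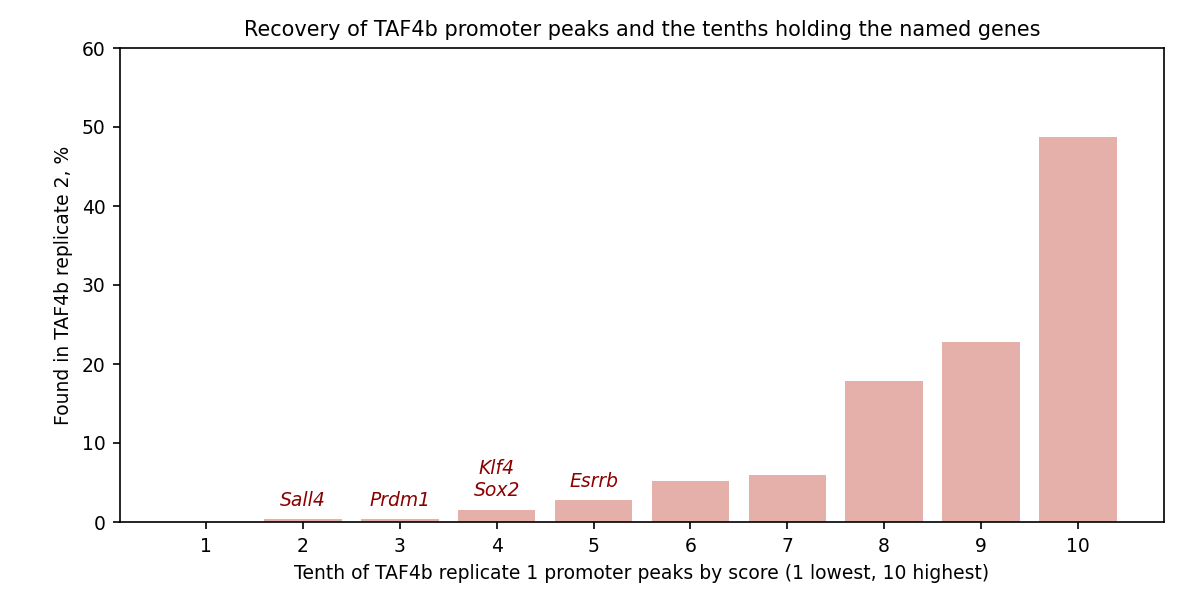
Percentage of TAF4b replicate 1 promoter peaks that overlap a replicate 2 peak, on the y axis, in 10 groups of near equal size ordered by score on the x axis. Names stand over the group that holds each factor's peak. Sall4 and Prdm1 are in groups with 0.347% and 0.348% found, Sox2 and Klf4 in a group with 1.56%, and Esrrb in a group with 2.78%, and the highest group reaches 48.8%.

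Of the 5 factors without a TAF4b peak, Pou5f1 had 1 H3K4me3 region, of 1451 bp, from -407 to 1044 bp relative to the canonical start. It covered 384 bp of coding sequence in exon 1. Its score was 90.9 (rank 11749), and the deposited class was exon, because the class follows the centre of a region. The nearest TAF4b peak of replicate 1 was 10961 bp from the start.

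Nanog encodes a homeodomain factor, and its region had the lowest score of the 8 that covered a canonical start. It was 718 bp wide with a score of 28.3 at rank 49029, and 22.6% of the list scored lower. A stronger region (1313 bp, score 120.7, rank 5675) lay from -5508 to -4195 bp relative to the canonical start and covered the start of ENSMUST00000578199, an upstream Nanog transcript of GENCODE M39. The deposited annotation assigns that region to Gm10224, so it is not among the 48 rows and was singled out after its value was seen. Another region, assigned to Nanog, had its centre 12745 bp downstream of the canonical start (score 56.6). The nearest TAF4b peak of replicate 1 was 103432 bp away.

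The upstream sequences of Pou5f1 and Nanog, both without a TAF4b peak, are shown for comparison with those above, as 250 bases before the canonical start on GRCm39 with the same capitals.
Pou5f1, chr17:35816539-35816788, plus strand: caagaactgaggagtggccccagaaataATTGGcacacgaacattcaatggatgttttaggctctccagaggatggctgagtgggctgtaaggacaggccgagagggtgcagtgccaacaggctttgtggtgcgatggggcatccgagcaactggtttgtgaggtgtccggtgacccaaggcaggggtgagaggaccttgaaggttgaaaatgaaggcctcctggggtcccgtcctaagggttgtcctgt
Nanog, chr6:122684237-122684486, plus strand: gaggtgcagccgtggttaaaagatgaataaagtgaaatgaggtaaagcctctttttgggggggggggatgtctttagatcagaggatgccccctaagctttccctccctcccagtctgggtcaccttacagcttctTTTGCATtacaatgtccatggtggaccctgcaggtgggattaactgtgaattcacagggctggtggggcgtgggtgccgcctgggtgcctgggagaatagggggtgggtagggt

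The Pou5f1 window held CCAAT and the Nanog window the octamer core, and neither held a GC box. Over windows from 250 bp before to 50 bp after the canonical start, a GC box was present at Sox2, Klf4 and Tfap2c, 3 of 10, against 42.5% of 21738 coding promoters. CCAAT was present at 6 of 10, namely Pou5f1, Sox2, Sall4, Esrrb, Prdm1 and Dppa3, against 39.9%. TATAAA was present at Dppa3 (13.2% of coding promoters), the E-box at Klf4 (7.82%) and the octamer core at Nanog (4.55%), and the cAMP response string at none of the 10 (8.60%). GC content ranged from 49.0% at Sall4 to 74.7% at Klf4, around a median of 54.3% over all coding promoters. The ratio of observed to expected CpG was lowest at Nanog (0.192), Dppa3 (0.312) and Esrrb (0.318) and highest at Sox2 (1.05) and Klf4 (0.970), with a median of 0.517 over all coding promoters.

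Dppa3 had 3 H3K4me3 regions in replicate 1. The one over the canonical start was 948 bp wide with a score of 43.2 (rank 34586), and the highest was inside the gene, over coding exon 2, with 1473 bp and a score of 96.9 (rank 10176). Another had its centre 6938 bp downstream of the canonical start, with a score of 71.5. The nearest TAF4b peak of replicate 1 was 139601 bp from the start.

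Prdm14 encodes a PR-domain zinc finger protein. As at Klf4, its canonical start lay between regions: 1 region of 500 bp ran from -739 to -239 bp (score 26.8), and 1 of 2787 bp from 565 to 3352 bp, over the coding sequence of exon 2 (score 205.7, rank 660). An intergenic region centred 23790 bp downstream of the canonical start scored 119.2. The large region covered the annotated starts of ENSMUST00000558322 and ENSMUST00000558323, both protein coding. The nearest TAF4b peak of replicate 1 was 244313 bp away.

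Tfap2c encodes an AP-2 factor and had the most rows, 16 of the 48. The highest score of all the factors' rows, 269.8 at rank 192, belonged to a region of 2291 bp from -3620 to -1329 bp relative to the canonical start. The region over that start was 832 bp wide with a score of 68.6, and the next ran from 871 to 2749 bp ( score 181.9, rank 1170). The other 13 were intergenic rows from 15822 to 186960 bp downstream of the nearest start, with scores from 20.9 to 116.3. Such rows carry the name of the nearest promoter, and their distance does not tie them to Tfap2c. The nearest TAF4b peak of replicate 1 lay 178726 bp from the canonical start.

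H3K4me3 was measured in a second way, as base pairs covered within 5000 bp on either side of the canonical start, so that the class of a region played no part. In replicate 1 all coding genes had a median of 1233 bp and a 90th percentile of 2566 bp. Tfap2c had 5001 bp, Sox2 3715 bp, Klf4 3640 bp, Prdm14 3287 bp and Prdm1 2875 bp, all above the 90th percentile. Dppa3 had 2421 bp, Sall4 2269 bp, Esrrb 1598 bp, Nanog 1523 bp and Pou5f1 1451 bp. The factors with a TAF4b promoter peak ranged from 1598 to 3715 bp and those without from 1451 to 5001 bp, so that the ranges overlapped. At Esrrb and Prdm1 the TAF4b peak lay outside this window, 48417 and 70685 bp from the canonical start. Sall4, Klf4 and Sox2, with the peak inside it, ranged from 2269 to 3715 bp.

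By the promoter class alone, 6 of 10 factors had an H3K4me3 region in replicate 1, against 44.0% of coding genes. With rows of any class and distance all 10 did, against 78.4%, and by a distance of at most 1000 bp to a start 9 of 10 did, against 62.0%. The canonical start itself lay inside a region at 8 of 10, against 56.2%, the exceptions being Klf4 and Prdm14. In replicate 2 no promoter region was assigned to a factor by class (4.14% of coding genes), since the promoter-class row at Sall4 names Gm14261, and no canonical start lay inside a region (3.52% of coding genes). Within 1000 bp of a start 2 of 10 had a region, Sox2 and Sall4, against 5.89%, and the same 2 did by position, against 7.00%.

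**Figure D3:**
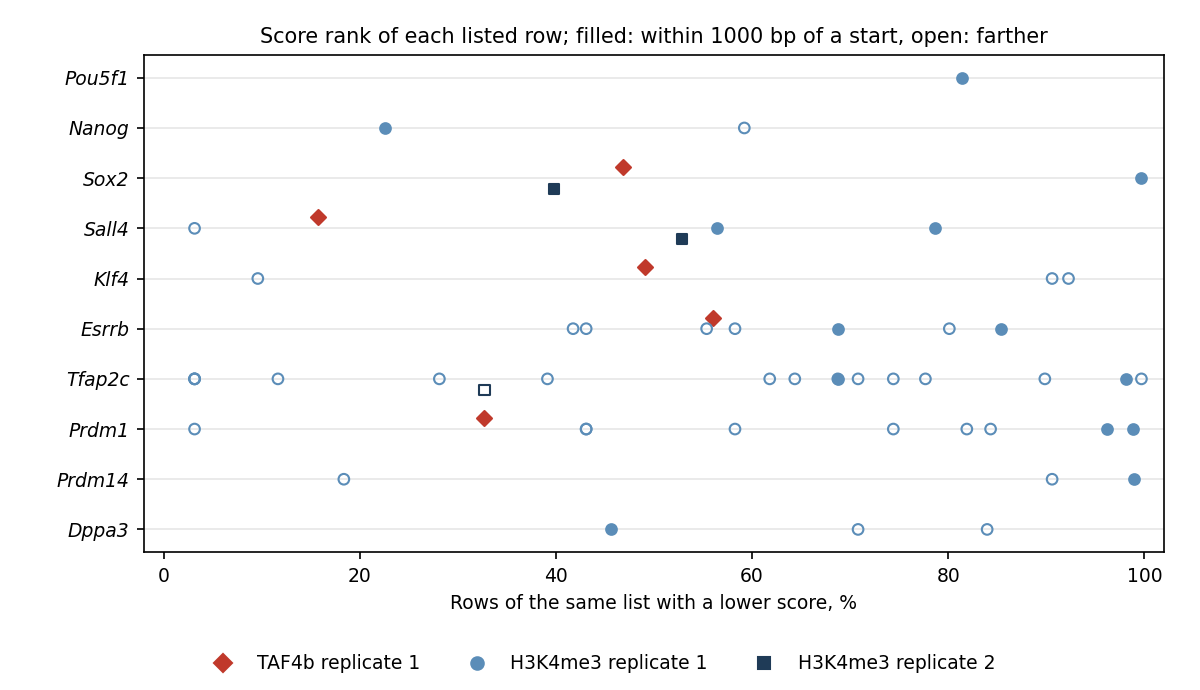
Each row of the 10 genes, placed on the x axis by the percentage of rows of the same list with a lower score, with 1 line per gene. Diamonds are TAF4b replicate 1, circles H3K4me3 replicate 1 and squares H3K4me3 replicate 2. Filled symbols lie within 1000 bp of a start by the deposited distance. TAF4b rows lie between 15.8% and 56.0%, while H3K4me3 rows near a start by that distance range from 22.6% at Nanog to 99.6% at Sox2. A Prdm14 region of H3K4me3 replicate 1, at 18.4%, is outside that range because its deposited distance is -1451 bp. By position it runs from -739 to -239 bp relative to the canonical start.

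The 3 regions of H3K4me3 replicate 2 all overlapped a region of replicate 1, as did 1691 of all 1730 regions of that list. At Sox2 it was 500 bp wide inside the coding sequence, from 436 to 936 bp downstream of the start, with a score of 111.2 and rank 816 of 1730. At Tfap2c it was 638 bp wide (score 106.1, rank 1042) and overlapped the upstream region of rank 192 in replicate 1. At Sall4 it was 625 bp wide (score 116.2, rank 711), lay from 1607 to 2232 bp downstream of the canonical start outside every exon of that transcript, and spanned the start of the shorter Sall4 transcript ENSMUST00000137536. The deposited class is promoter of Gm14261.

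That Sall4 region ranked 27088 in replicate 1 (score 53.7), below the region over the canonical start, which was not listed in replicate 2. Of the replicate 1 regions scoring 53.7 or less, 123 of 37804 were found in replicate 2 (0.325%, 95% Wilson interval 0.273 to 0.388). The cut is the score of this Sall4 row, which was picked because it was found again and is itself among the 123. The rate covers all scores down to 16.4 and is not the rate near 53.7. From the side of replicate 2, 7.21% of the 1691 regions with a partner had a best partner that ranked this low or lower. Of the 5 rows of the factors within the first 1730 ranks of replicate 1, 2 were found in replicate 2. Those 5 scored at least 181.9, and 23.7% of all regions at or above that score were found again (290 of 1226, 21.4 to 26.1).

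The related genes of the same pathways were 48, of which 13 had a TAF4b promoter peak in replicate 1, again beside 22.7% of all coding genes. Of 25 genes of the pluripotency network there were 6. Stat3, the effector of leukaemia inhibitory factor signalling, had a score of 41.7 at rank 142, and Klf5, a Klf4 relative, 34.2 at rank 430. Lin28b, a repressor of let-7 processing, had 23.8 at rank 1535 and Jarid2, a Polycomb cofactor, 20.8 at rank 2102. Trim28, a corepressor of zinc finger proteins, had 17.9 at rank 2865.

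Of 23 genes of germ cell specification and early germ cells there were 7. Prmt5, an arginine methyltransferase, had 39.7 at rank 193, Cbfa2t2, a PRDM14 partner, 24.3 at rank 1432 and Dnd1, an RNA-binding protein, 17.4 at rank 3016. Smad5 (11.4, rank 5293) and Bmp4 (7.44, rank 7626), a transducer and a ligand of bone morphogenetic protein signalling, were low in the list, as were Elavl2 (10.4, rank 5762) and T (9.93, rank 6002). For genes with several promoter peaks these are the highest. The 13 had a median of 63.6% of the list scoring lower, where the 5 factors had 46.8%.

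In TAF4b replicate 2 promoter peaks were listed at 3 of the 48 related genes, 6.25% beside 3.14% of all coding genes. Stat3 had a score of 93.1 at rank 94, Cbfa2t2 68.8 at rank 265 and Klf5 56.7 at rank 456, and these were the genes at ranks 142, 1432 and 430 of replicate 1. H3K4me3 promoter regions were listed at 29 of the 48 in replicate 1, 60.4% beside 44.0% of all coding genes. In replicate 2 they were listed at 3, 6.25% beside 4.14%, namely Fgf4 (score 136.4, rank 377), Nr5a2 (111.2, rank 816) and Lefty2 (96.0, rank 1464).

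**Figure D4:**
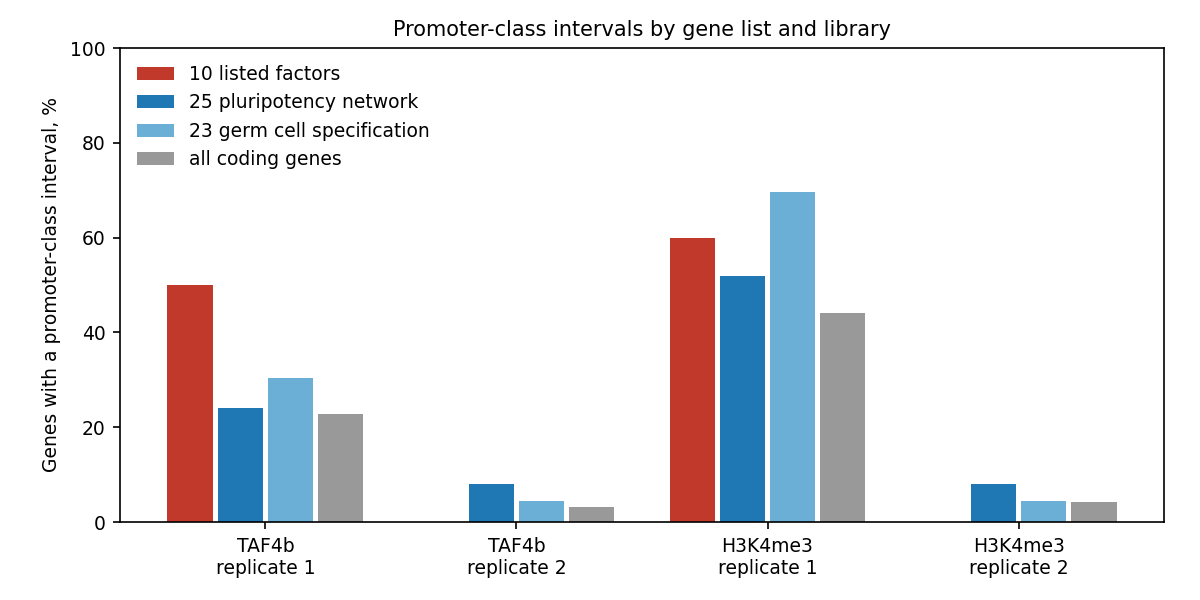
Percentage of genes with a promoter-class interval (y axis) in each of the 4 libraries (x axis), for the 10 factors, 25 pluripotency network genes, 23 germ cell specification genes and all protein coding genes. In TAF4b replicate 1 the genes are 5 of 10, 6 of 25 and 7 of 23, beside 22.7% of all coding genes, and in both replicate 2 lists the 10 factors have 0.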

How the data were processed

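CUT&RUN was deposited as 1 annotated list per library for TAF4b and H3K4me3, with 2 replicates each, and groups and replicate numbers come from the sample titles. Per the submitters' processing notes the tools were bcl2fastq 2.20, Trim Galore 0.5.0, FastQC 0.11.5, Bowtie2 2.3.0, SAMtools 1.9 and HOMER 4.10, with GRCm39 as the build. Per the file headers, the H3K4me3 regions were annotated with HOMER on GRCm39 and Ensembl 103. The TAF4b headers name no build, but at 4 of the 5 peaks (not Sall4) the deposited distance equals the one computed on GRCm39. The peak caller's threshold is not given in the sources used here. Each interval carries a deposited score from the authors, whose scaling no header explains, and scores were compared only inside 1 list. The deposited focus ratio, a fraction per TAF4b peak, was not used. Depth is unknown.

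Transcript identifiers were matched to genes through GENCODE M39 (98.6% to 99.2% of nearest transcripts found). The canonical start is that of the transcript tagged canonical there. Intervals overlapped when they shared 1 bp. Of the listed genes, Tdgf1 and Tbxt are named Cripto and T in that annotation. Sequences were read with pysam 0.24.0, and tables were made with pandas 2.3.3 in Python 3.11.15. Assignment by position was tested on simulated intervals. The 10 factors, related genes and markers were chosen with earlier results of these data known. Named were all factors with every kind of row, related genes with a promoter-class TAF4b peak or a promoter-class H3K4me3 region in replicate 2 (genes with rows of other classes only were not named), and the promoter peaks 2 places above and below each factor. The values of 1 related gene are not reported here. Alternatives changed the promoter rule, the score minimum, the list length, the overlap, the ranking and the window. No test was made, because the lists hold called intervals of single libraries in 1 condition, with no value per gene in every library.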

Additional observations from a re-analysis of the deposited data

How the results depend on the processing

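No paired analysis was possible because the results are counts and ranks within single libraries and come from no test. Of 65 alternative values, 30 stayed within 1.5 times the count (or within the counting interval of a rank) and 35 moved beyond it. The count of factors with a TAF4b promoter peak in either replicate, 5, ranged from 0 to 5 when a replicate was left out, and that for H3K4me3, 6, from 0 to 6, because by class no replicate 2 row was assigned to these genes (the promoter-class H3K4me3 row at Sall4 names Gm14261). In the higher-scoring 50% the TAF4b count was 2, in replicate 1 alone also 2. Cutting the replicate 1 lists to the length of their replicate 2 lists left 0 factors with TAF4b and 3 with H3K4me3. For the related genes it left 3 in place of 13 and 7 in place of 29. No share of all coding genes is given for the cut lists or for the higher-scoring 50%. These counts are therefore not read as particular to the genes.

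The H3K4me3 count of 6 became 10 with any row of the gene, which 78.4% of all coding genes had in replicate 1, and 10 by position, in replicate 1 and in either replicate. In replicate 2 the count of 0 became 2 within 1000 bp, 3 with any row and 2 by position. All coding genes had 5.89%, 7.46% and 7.00% under these rules in replicate 2. For the related genes the H3K4me3 replicate 1 count of 29 became 44 within 1000 bp, 48 with any row and 45 by position. All coding genes had 62.0%, 78.4% and 70.7% under these rules in replicate 1. Among promoter-class peaks only, the median share of the TAF4b list scoring below the 5 factors was 36.2% in place of 46.8%. These alternatives change which rows are counted by their construction. The unknown depth and the short replicate 2 lists limit what an absent row can show.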
